A study of Homo sapiens with 6 samples.

Results

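The snoRNA host genes were followed through irradiation of HMC3, an immortalized human cell line sold and used as a microglia model. A host gene carries small nucleolar RNAs in its introns, and the genes described here are the long noncoding hosts: every gene whose name is SNHG and a number, together with GAS5, ZFAS1, DANCR and EPB41L4A-AS1. This naming rule found 33 genes among the 31768 with counts, holding 1580 transcripts. Of these, 30 reached 10 or more counts in 3 or more libraries, and the same 30 were tested among 11118 genes. SNHG22, SNHG27 and SNHG28 did not reach it, with between 0 and 14 counts in any library. Control HMC3 cultures received 0 Gy and irradiated cultures 15 Gy of X-rays, and both were collected after 24 h. There were 3 independent cultures in each group, all of this single immortalized cell line. Each culture gave a long-read nanopore cDNA library made from polyadenylated RNA.

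Libraries held 4870897 to 9082409 counts in controls and 6292049 to 6909420 in irradiated cells, of which host genes took 1.23% to 1.35% and 0.978% to 1.14%, respectively. CDKN1A, the p53 target that halts the cell cycle, rose from 183 ± 16.4 to 626 ± 9.61 CPM (counts in a million-count library after TMM scaling, given with SD, n = 3; log2 fold change 1.77, SE 0.116, adjusted p = 6.3e-07 by the quasi-likelihood test of edgeR and the Benjamini-Hochberg method, as for every adjusted p below unless another tool is named). Of the markers that define microglia, AIF1, CSF1R, TREM2, PTPRC and SPI1 had at most 13 counts in any library, and CX3CR1, P2RY12, TMEM119, ITGAM, SALL1, C1QA and TYROBP were not analysed here. Of 12 fibroblast and pericyte markers, 10 had counts, with COL1A1 and THY1 the most abundant. Summed over the fibroblast and pericyte list, the share of unscaled library totals was 255 to 314 CPM in controls against 351 to 428 CPM in irradiated cells. Under TMM factors 6 of this list were tested, of which MCAM, ACTA2 and COL1A2 rose. THY1 fell from 133 to 86.0 CPM (adjusted p = 0.0037), and COL1A1 stood at 185 beside 200.4 CPM (adjusted p = 0.515). The part of these differences in the results below was not tested. In bulk RNA, fewer cells that express a gene and less RNA of it per cell cannot be told apart.

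SnoRNAs guide the chemical modification of ribosomal RNA. Those with boxes C and D direct methylation of ribose, those with boxes H and ACA direct conversion of uridine to pseudouridine, and scaRNAs do the same for spliceosomal RNAs in Cajal bodies. In a host gene the snoRNA is trimmed out of a spliced intron while the joined exons leave as a separate spliced RNA, and many of these spliced RNAs are turned over by nonsense-mediated decay when they are translated. Many host genes, like the genes of ribosomal proteins, begin with a terminal oligopyrimidine tract, a run of C and T bases that ties translation of the RNA to growth signals.

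RefSeq placed 154 snoRNA or scaRNA genes within the spans of 32 of the 33 hosts (GRCh38.p14), of which 121 were box C/D, 24 box H/ACA and 4 scaRNA. SNHG14, the long host in the imprinted Prader-Willi region, held 84, GAS5 held 11 and SNHG1 held 9, while 17 hosts held 1 each and SNHG27 held none. Of the 149 hosted RNAs that could be put in a class, 18 had any count, and never more than 3 in a library. The libraries were made from polyadenylated RNA and cleaned of short cDNA, so these counts do not measure the amount of snoRNA. The following sequences, from GENCODE 29 at the RefSeq positions and read on the host's strand, show what 4 of the called hosts carry: SNHG1 and DANCR from the strongest falls, SNHG29 as the most abundant differentially expressed host, and SNHG7 as a host that rose. In the box C/D RNAs the capitals mark TGATGA of box C and the last CTGA of box D, and in the box H/ACA RNAs they mark the ACA near the end and, where a single candidate was found, the H box.
SNORD27 in SNHG1, chr11:62855012-62855083, minus strand: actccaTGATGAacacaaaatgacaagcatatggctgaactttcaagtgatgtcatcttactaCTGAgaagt
SNORD30 in SNHG1, chr11:62853663-62853732, minus strand: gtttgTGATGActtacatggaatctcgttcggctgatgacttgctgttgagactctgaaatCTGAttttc
SNORD49A in SNHG29, chr17:16440036-16440106, plus strand: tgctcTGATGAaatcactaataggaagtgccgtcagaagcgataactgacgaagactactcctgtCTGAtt
SNORA26 in DANCR, chr4:52713249-52713370, plus strand: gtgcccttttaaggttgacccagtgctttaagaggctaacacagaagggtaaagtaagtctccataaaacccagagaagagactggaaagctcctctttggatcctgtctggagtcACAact
SNORA17A in SNHG7, chr9:136726747-136726879, minus strand: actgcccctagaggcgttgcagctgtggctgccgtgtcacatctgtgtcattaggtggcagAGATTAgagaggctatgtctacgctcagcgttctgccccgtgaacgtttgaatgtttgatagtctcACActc

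The host genes were mostly lower in irradiated cells. Of the 30 tested, 21 fell and 2 rose at an adjusted p under 0.05, where 14.1% of all genes tested fell and 11.6% rose. With the further limit of a log2 fold change beyond 1 that defines differential expression here, 8 hosts were lower (1.7% of all genes) and 0 higher (4% of all genes). DESeq2 gave the same counts of 8 and 0, and no host had a log2 fold change above 0.99. The CPM of the irradiated libraries lay wholly below the controls for 23 hosts (21.3% of all genes) and wholly above for 2 (21.5% of all genes). The median log2 fold change of the hosts was −0.70, beside 0.08 for all genes. Summed over the 30 hosts, the controls held 15500, 17560 and 13720 CPM and the irradiated libraries 8201, 10830 and 8905 CPM. Replicate 2 was the highest of each group, and the groups did not overlap. ZFAS1, SNHG5, SNHG29 and GAS5 together made up 62.0% to 69.1% of this sum in every library.

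**Figure D1:**
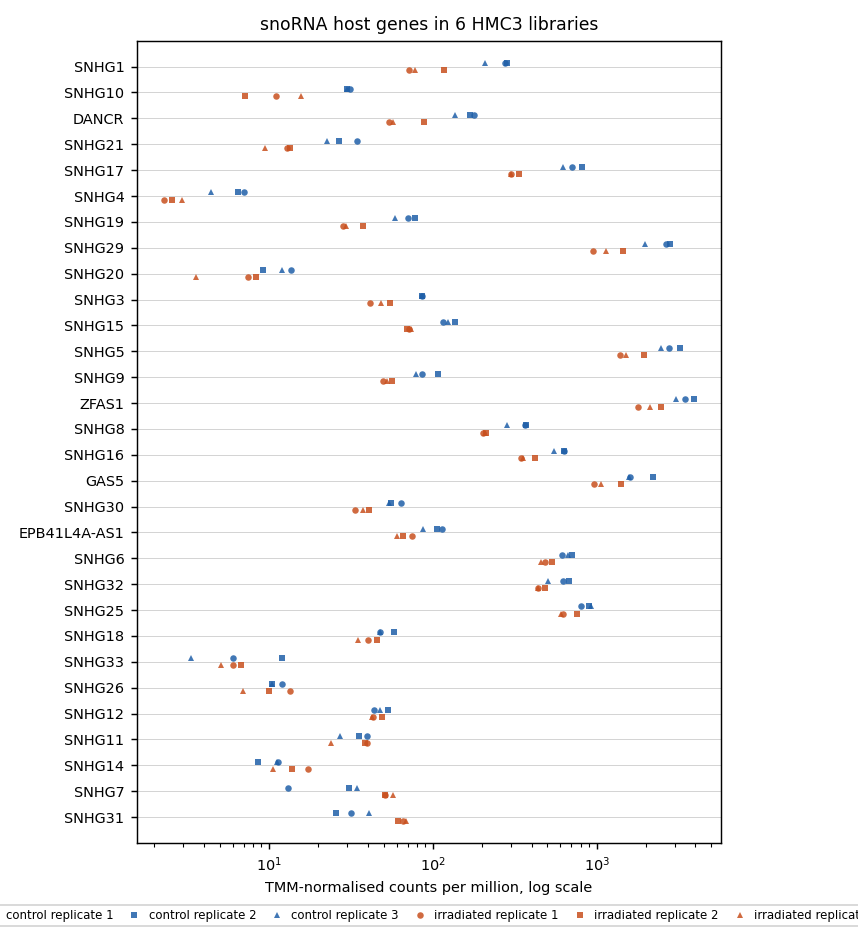
Level of each of the 30 tested snoRNA host genes in the 6 libraries, in TMM-normalised CPM on a log axis, with controls in blue, irradiated cells in orange and 1 symbol per replicate. Genes are ordered by log2 fold change, and the irradiated points lie left of the controls for 23 genes and right of them for SNHG7 and SNHG31.

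SNHG1, whose introns release a run of box C/D snoRNAs, changed by the most. It measured 275, 283 and 208 CPM in controls and 71.6, 117 and 77.5 CPM in irradiated cells. Every irradiated library was below every control, a 2.88-fold lower level (log2 fold change −1.53, SE 0.174, adjusted p = 0.000151). DANCR, the host of SNORA26 known as an RNA that holds progenitor cells undifferentiated, had 177, 168 and 136 CPM in controls and 53.9, 88.5 and 57.1 CPM after irradiation. Here too the groups stood apart, with a 2.41-fold lower level (log2 fold change −1.27, SE 0.175, adjusted p = 0.000458). SNHG17, which holds members of the SNORA71 family, gave the smallest adjusted p of the hosts. Its levels were 707, 816 and 625 CPM in controls and 298, 333 and 298 CPM in irradiated libraries, with little spread among the irradiated cultures and a 2.31-fold lower level (log2 fold change −1.21, SE 0.125, adjusted p = 9.43e-05). SNHG29, the host of SNORD49A, SNORD49B and SNORD65, fell from 2651, 2790 and 1964 to 950.5, 1453 and 1138 CPM (log2 fold change −1.06, SE 0.164, adjusted p = 0.000754). It was the single differentially expressed host among the 4 most abundant.

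The other differentially expressed hosts were of low abundance. SNHG10, the host of SCARNA13, had 31.1, 29.8 and 30.0 CPM in controls and 11.1, 7.18 and 15.7 CPM in irradiated cells. The controls were nearly equal while the irradiated libraries differed among themselves, and the level was 2.66-fold lower (log2 fold change −1.41, SE 0.242, adjusted p = 0.00109). SNHG21, the host of SCARNA15, fell from 34.6, 26.6 and 22.5 to 12.8, 13.5 and 9.46 CPM (log2 fold change −1.22, SE 0.224, adjusted p = 0.00162). SNHG19, a short gene with SNORD60, fell from 70.7, 77.7 and 58.6 to 28.1, 37.2 and 29.5 CPM (log2 fold change −1.125, SE 0.165, adjusted p = 0.000586). In each of these 3 genes the groups did not overlap. SNHG4, the host of SNORA74A, had only 17 to 44 counts in a library. It measured 7.02, 6.43 and 4.45 CPM in controls and 2.28, 2.54 and 2.94 CPM in irradiated cells (log2 fold change −1.18, SE 0.365, adjusted p = 0.0261). The groups stood apart, yet the call was lost when control replicate 1 or 2 or any irradiated replicate was left out, with adjusted p between 0.0567 and 0.092. The gene lies within the span of MATR3 on the same strand in GENCODE 29, so reads of the pair may be split uncertainly.

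The other 3 of the 4 most abundant hosts fell by less than the differential expression limit. ZFAS1, the host of the SNORD12 family, was the highest, with 3458, 3940 and 3047 CPM in controls and 1789, 2458 and 2115 CPM after irradiation. The groups did not overlap, and the log2 fold change was −0.715 (SE 0.142, adjusted p = 0.00235). SNHG5, the host of SNORD50A and SNORD50B, had 2769, 3207 and 2479 CPM against 1383, 1939 and 1513 CPM. Its groups were also apart (log2 fold change −0.81, SE 0.146, adjusted p = 0.00143). GAS5, named for its accumulation in growth-arrested cells, measured 1599, 2200 and 1568 CPM in controls and 960.9, 1402 and 1064 CPM in irradiated cells. All irradiated values were below the controls, the highest of them close to the lowest control (log2 fold change −0.65, SE 0.16, adjusted p = 0.00824). Without irradiated replicate 3 the adjusted p of GAS5 was 0.0529, at a log2 fold change of −0.60. Divided by transcript length, the level in controls was highest for SNHG5 at 5040 CPM per kb, followed by SNHG25 at 4340 and ZFAS1 at 4150. SNHG29 at 2900 and GAS5 at 2410 CPM per kb came next, and in irradiated cells SNHG25 led at 3300 CPM per kb. A long read can cover a whole transcript and is counted once at any length, so these ratios do not rank the hosts by abundance. These ratios of mean level to length rest on the transcripts with a model in GENCODE 29, which hold 33.7% of the hosts' counts. The spread among controls was wider than the gap between SNHG25 and ZFAS1 and than that between SNHG29 and GAS5, so neither order is settled.

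SNHG16, SNHG8, SNHG6, SNHG32 and SNHG25 came next among the hosts not yet described and were lower by 1.32-fold to 1.64-fold. SNHG16, which carries SNORD1A, SNORD1B and SNORD1C, had 632.7, 633.7 and 547.3 CPM in controls and 345.2, 422.2 and 354.8 CPM in irradiated cells (log2 fold change −0.69, SE 0.122, adjusted p = 0.00125). SNHG8, the host of SNORA24, had 365.2, 370.4 and 282.3 CPM against 202.7, 211.0 and 206.9 CPM (log2 fold change −0.71, SE 0.125, adjusted p = 0.00122). Neither gene's groups overlapped. SNHG6, the host of SNORD87, measured 614.8, 708.5 and 663.4 CPM in controls and 481.7, 532.4 and 454.8 CPM after irradiation, a log2 fold change of −0.44 (adjusted p = 0.0127, and 0.089 without irradiated replicate 3, at −0.39). SNHG32, with SNORD48 and SNORD52, had 625.1, 678.6 and 502.7 CPM against 437.5, 480.5 and 435.0 CPM (log2 fold change −0.42, adjusted p = 0.0247). SNHG25, the host of SNORD104, had 799.5, 891.4 and 921.6 CPM against 617.9, 758.7 and 608.0 CPM (log2 fold change −0.40, adjusted p = 0.0277). These last 3 were the weakest falls. SNHG32 lost its call without control replicate 1 or 2 or irradiated replicate 1 or 3 (adjusted p from 0.0814 to 0.11), and SNHG25 lost it without control replicate 2 or irradiated replicate 1 or 3 (adjusted p from 0.0617 to 0.15). The call was kept in every fit without 1 library for SNHG16 and SNHG8.

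Among the less abundant hosts, 5 more fell. SNHG3 carries SNORA73A and SNORA73B and lies within the span of RCC1 on the same strand in GENCODE 29. It went from 85.6 ± 0.609 to 48.3 ± 6.63 CPM (SD, n = 3; log2 fold change −0.83, adjusted p = 0.00107). SNHG15, the host of SNORA9, went from 125 ± 10.4 to 71.5 ± 1.93 CPM (log2 fold change −0.81, adjusted p = 0.000754). SNHG9, the host of SNORA78, went from 90.9 ± 15.2 to 52.9 ± 3.51 CPM (log2 fold change −0.78, adjusted p = 0.00178). These 3 falls exceeded the spread of either group. SNHG30, the host of SNORD7, fell by 0.63 on the log2 scale (adjusted p = 0.00679). EPB41L4A-AS1, the host of SNORA13 transcribed against EPB41L4A, fell by 0.61 (adjusted p = 0.00593). Calls for all 5 remained in every fit that left out 1 library.

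Only SNHG7 and SNHG31 rose, and since 2 hosts did so their libraries are given although this was decided after the values were seen. SNHG7, the host of SNORA17A and SNORA17B, had 13.04, 30.8 and 34.2 CPM in controls and 51.0, 50.9 and 56.8 CPM in irradiated cells. Control replicate 1 was far below the other controls, while the irradiated libraries were close together and above all of them (log2 fold change 0.99, SE 0.241, adjusted p = 0.00758). SNHG31, the host of SNORA70I, had 31.9, 25.7 and 40.5 CPM against 65.7, 61.3 and 68.4 CPM. Its groups did not overlap either (log2 fold change 0.99, SE 0.171, adjusted p = 0.00114). The span of SNHG31 overlaps that of RPL10P6 on the same strand in GENCODE 29. Transcripts with a GENCODE 29 model held only 0.43% of the counts of SNHG31. Both calls were kept without any single library. Both changes lay just inside the limit of 1 on the log2 scale.

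Another 7 hosts did not pass the test. SNHG20, the host of SCARNA16, lies within the span of SEC14L1 on the same strand and had 31 to 102 counts a library. Its log2 fold change was −0.83 (SE 0.314, adjusted p = 0.0614), with every irradiated library below the controls. SNHG18, the host of SNORD123, was at −0.34 (adjusted p = 0.121) with its groups also apart. SNHG33, SNHG26, SNHG12 and SNHG11 lay between −0.25 and 0.01 and overlapped between groups. For SNHG12, the best counted of these, 48.2 ± 4.62 CPM in controls stood beside 44.9 ± 3.76 CPM in irradiated cells (SD, n = 3; log2 fold change −0.11, SE 0.15). SNHG14 was at 0.43 (SE 0.25, adjusted p = 0.22).

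**Figure D2:**
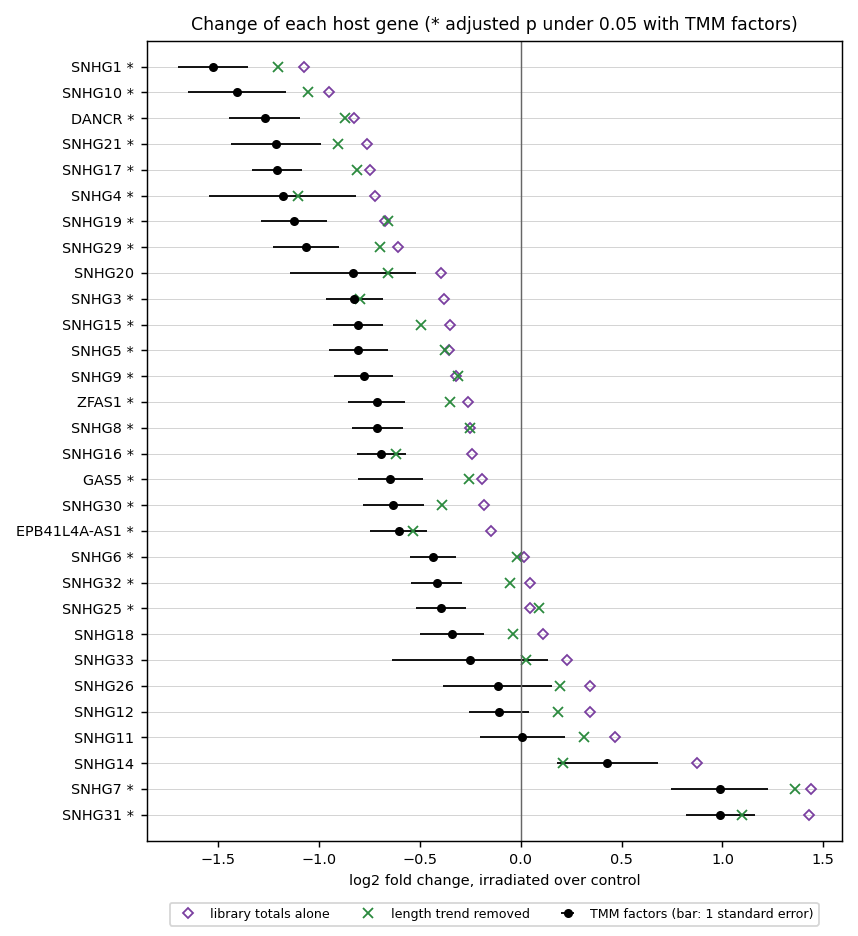
Log2 fold change of each host gene, irradiated over control, with black points and bars for the estimate and 1 standard error under TMM factors, diamonds for library totals alone and crosses after removal of the length trend. Stars mark the 23 genes with an adjusted p under 0.05 under TMM factors, from SNHG1 at −1.53 to SNHG31 at 0.99.

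Hosts were also counted by the class of snoRNA they carry. Of 13 hosts of box C/D snoRNAs alone, 10 fell and 0 rose, with a median log2 fold change of −0.63. Of 12 hosts of box H/ACA snoRNAs alone, 8 fell and 2 rose, with a median of −0.75, and the 2 risers were SNHG7 and SNHG31. The 3 hosts of scaRNAs had a median of −1.22, with 2 called lower. Of GAS5 and SNHG12, which hold both classes, only GAS5 fell. Differences between these classes were not tested. Across the 30 hosts, which share the same libraries, Spearman's rho of the log2 fold change was 0.23 with transcript length and −0.17 with mean level.

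The starts of the genes were read for the terminal oligopyrimidine tract, taken as a C followed by 4 or more bases that are C or T, on the transcribed strand of the RefSeq promoters (GRCh38.p14). A promoter was matched for 26 of the tested hosts and not for SNHG6, SNHG9, SNHG15 and SNHG25. From the annotated first base onward the bases formed this tract in 7 of the 26 (26.9%), against 4.0% of all 27305 promoters, 5.9% of the 8679 promoters of tested genes and 68.3% of 63 promoters of cytosolic ribosomal protein genes. At the starts of GENCODE 29 transcript models the same reading found it in fewer, 3 of 30 hosts, 2 of the 21 that fell (9.5%), 2.8% of the genes tested and 27.8% of 79 ribosomal protein genes. At the RefSeq starts, of 17 hosts that fell, 5 had it (29.4%), and of 9 that did not fall, 2 had it (22.2%). Anywhere within 25 bases on either side of the start, where the bases before it are not transcribed, a run of this form was found for 24 of the 26 hosts (92.3%). It was found in 54.2% of all promoters. Of the 17 hosts that fell, 15 had such a run (88.2%), and of the 9 that did not fall, 9 had it (100%). The windows that follow cover 25 bases on each side of the start, so the 26th base is the first base transcribed. Capitals mark every such run, transcribed or not. The first 5 are the hosts that fell and have the tract at the start, and they are followed by SNHG12, which like SNHG18 has it and did not pass the test, and by SNHG1 and SNHG7, which do not have it and fell and rose.
SNHG19, chr16:2155334-2155383, minus strand: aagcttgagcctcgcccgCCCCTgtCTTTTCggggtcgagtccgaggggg
SNHG4, chr5:139274076-139274125, plus strand: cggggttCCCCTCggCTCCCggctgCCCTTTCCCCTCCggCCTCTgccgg
SNHG5, chr6:85678709-85678758, minus strand: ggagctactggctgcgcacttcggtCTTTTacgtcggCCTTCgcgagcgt
ZFAS1, chr20:49278617-49278666, plus strand: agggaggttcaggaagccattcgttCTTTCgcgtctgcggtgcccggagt
SNHG32, chr6:31834891-31834940, plus strand: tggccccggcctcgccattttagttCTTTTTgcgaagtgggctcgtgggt
SNHG12, chr1:28581849-28581898, minus strand: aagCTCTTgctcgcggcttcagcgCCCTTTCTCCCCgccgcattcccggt
SNHG1, chr11:62855861-62855910, minus strand: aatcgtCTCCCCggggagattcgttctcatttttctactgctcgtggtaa
SNHG7, chr9:136728160-136728209, minus strand: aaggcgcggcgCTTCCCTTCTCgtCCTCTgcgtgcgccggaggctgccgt

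Scaling and transcript length moved with the groups. TMM factors were 0.793 to 0.928 in controls and 1.09 to 1.24 in irradiated libraries, and with library totals alone the median of all genes moved up by 0.45, to 0.53. The hosts' median was then −0.25. Such a change of factors moves every gene by nearly the same amount, and so leaves the distance of the hosts from the median of all genes, −0.78 under TMM factors, nearly as it was. With library totals alone 13 hosts were called lower and 3 higher, where 356 of all 11118 genes were called lower and 3643 higher. SNHG6, SNHG32 and SNHG25 then had log2 fold changes of 0.01, 0.04 and 0.05. The smooth trend on length gave a difference, irradiated minus control, of −0.32 at 1045 bases and 0.24 at 5691 bases, and the hosts' median length was 1069 bases against 2638 for all genes. These lengths rest on transcripts with a model in GENCODE 29, which hold 33.7% of the hosts' kept counts and 86.0% of all kept counts. The correction is therefore less certain for the hosts. With the trend removed, the hosts' median was −0.36, beside 0.045 for all genes, a distance of −0.41. In this fit 14 hosts were called lower and 2 higher, where 1144 of all 11118 genes were called lower and 1051 higher. SNHG1, SNHG10, DANCR, SNHG21, SNHG17, SNHG19, SNHG29, SNHG3, SNHG15, SNHG5, ZFAS1 and SNHG16, 12 in all, were called lower in all 3 of these fits.

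The transcripts of the hosts were tested individually across the whole table. Of 1206 host transcripts tested, 193 were differentially abundant and lower, against 4.33% of all 74843 transcripts, and 15 were higher, against 3.36%. The balance depends on the scaling and the test. Library totals alone gave 69 lower and 85 higher, and DESeq2 gave 157 lower and 1 higher. Shares of all transcripts in these fits are not given here, so the 85 are not read as a trait of the hosts. In the main fit the 193 lower ones came from 19 hosts, with 49 in SNHG17, 45 in SNHG1, 25 in GAS5 and 22 in SNHG29. Of the 15 higher ones, 6 belonged to SNHG7, and none exceeded 4.52 CPM in irradiated cells. In SNHG1, the most abundant transcript, ENST00000689147, had 29.4, 30.6 and 20.5 CPM in controls and 4.201, 10.2 and 6.51 CPM in irradiated cells (log2 fold change −1.94, adjusted p = 3.45e-20). In DANCR, the 3 transcripts that share most of the gene fell together: ENST00000441504 by 1.43, ENST00000411630 by 1.44 and ENST00000425653 by 1.35 on the log2 scale. In ZFAS1, ENST00000371743 led in both groups and had 457.9, 543.5 and 383.8 CPM against 190.9, 298.6 and 233.5 CPM (log2 fold change −0.94). Of the hosts' tested transcripts, 17.6% had a GENCODE 29 model, and isoforms of a host can share exons, so how reads were divided among them is uncertain.

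Isoform usage was measured as the isoform fraction, the share of a gene's counts held by a transcript. With a limit of 0.1 on the difference in fraction (dIF), 0 host transcripts gained and 0 lost, where 0.269% of all transcripts gained and 0.135% lost. The diffSplice test of limma also called 0 at that limit. A single host transcript, ENST00000505522 of SNHG4, moved by more than 10 points, from 76.1% to 89.3% of a gene with few counts (adjusted p = 0.952). In SNHG3, ENST00000413987 held 79.7%, 77.7% and 71.6% in controls and 71.0%, 68.9% and 65.0% in irradiated cells, while the retained-intron transcript ENST00000437681 held 19.2%, 19.8% and 24.9% against 27.1%, 27.1% and 30.5%. The groups did not overlap for either share, but neither passed the usage test (adjusted p = 0.906 and 0.384). SNHG31 was nearly a single transcript, ENST00000797182, with 96.4% of its counts in controls and 98.9% in irradiated cells.

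Transcripts with small shares made up the usage calls. At an adjusted p under 0.05 with no limit on size, an alternative chosen after the data were seen, 97 host transcripts had a higher share (3.53% of all transcripts) and 14 a lower share (0.911% of all transcripts). The differences ran from −5.12 to 3.41 percentage points and came from 13 hosts. SNHG17 had 22 such gains, ZFAS1 16, SNHG32 14 and SNHG5 11. As a description of the transcripts so chosen, the 14 of SNHG32 together held 9.67%, 8.50% and 15.2% of the gene in controls and 28.8%, 20.7% and 25.4% in irradiated cells. The 16 of ZFAS1 held 3.98%, 3.48% and 6.15% against 13.4%, 9.22% and 11.8%. In both genes control replicate 3 was the highest control and irradiated replicate 2 the lowest irradiated library. Among the losses were 6 transcripts of GAS5, which together went from 16.0%, 15.8% and 14.5% to 9.11%, 9.09% and 8.45%, and 5 of SNHG16, which went from 20.02%, 20.5% and 16.8% to 9.11%, 13.7% and 9.58%. Of GAS5 transcripts, ENST00000689958 moved the most, from 5.44% to 3.01% of the gene (adjusted p = 0.00104). The widest single loss was in SNHG12, where ENST00000464115 went from 12.6%, 10.4% and 8.29% to 5.00%, 5.17% and 5.71%. Of SNHG16 transcripts, ENST00000591956 rose from 1.66% to 4.06% (adjusted p = 3.65e-07).

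The effective number of isoforms, also added after the data were seen, is 1 over the sum of squared isoform fractions and counts how many equally used transcripts would give the same spread. It was higher in every irradiated library than in every control for 18 of the 30 hosts and lower for 1, where 28.5% of all genes were higher and 4.87% lower. In SNHG17 it was 38.2, 35.9 and 42.9 in controls and 60.5, 53.9 and 63.8 in irradiated cells, and in SNHG1 it was 30.1, 30.8 and 33 against 58.3, 40.1 and 45.8. In SNHG11, whose total level did not pass the test, it was 26.4, 29.4 and 36.2 against 55.8, 52.4 and 51.6. SNHG31 was the 1 with a lower number, 1.03 to 1.12 against 1.01 to 1.03, and the gap is smaller than the rounding. The shift in DANCR was small, from 3.23, 3.30 and 3.48 to 3.74, 3.73 and 3.71. The shares of all genes were not matched for the number of transcripts, which was 1206 over the 30 hosts and 74843 over all 11118 genes. With 10 counts in 3 libraries required of each transcript, the number was higher without overlap in 13 hosts.

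**Figure D3:**
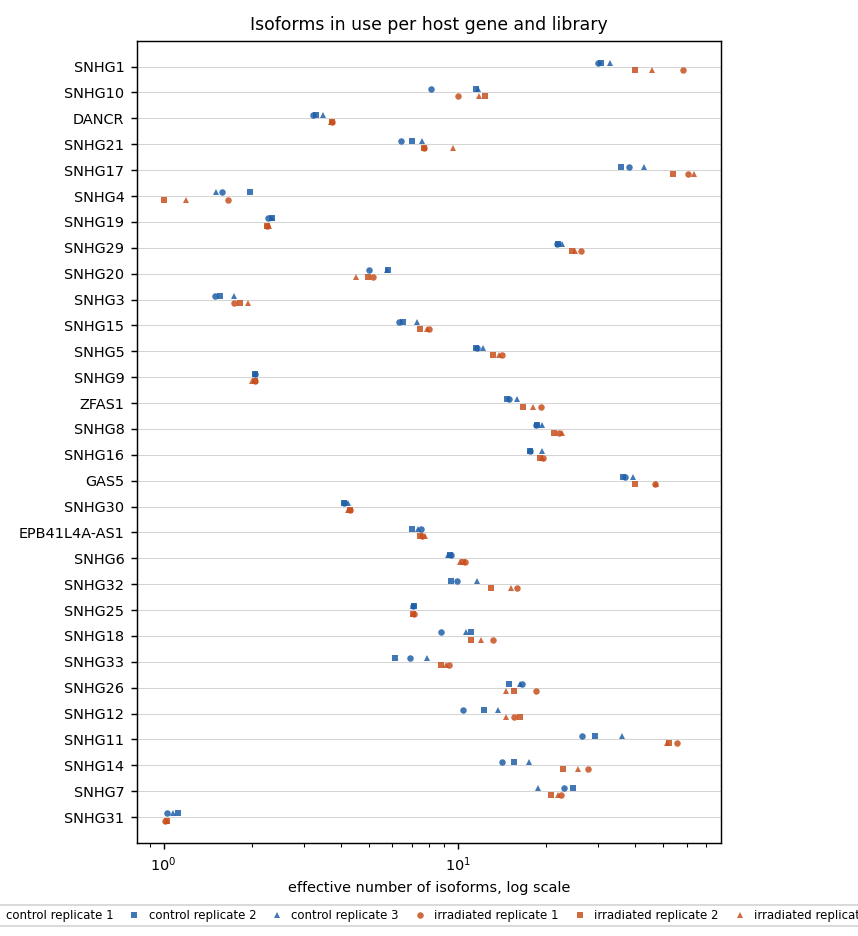
Effective number of isoforms of each host gene in each library on a log axis, with controls in blue, irradiated cells in orange and genes in the order of their log2 fold change. The irradiated points lie to the right of the controls for 18 genes, among them SNHG1, SNHG17 and SNHG11.

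Genes that make, load or share the snoRNAs were set beside the hosts. With library totals alone, 356 of all 11118 genes were called lower and 3643 higher. With the length trend removed, 1144 were called lower and 1051 higher. Counts from those fits are to be read against these numbers. All other counts, made with TMM factors, are to be read against the 14.1% of all genes that fell and the 11.6% that rose. Of the 4 core proteins of box C/D particles, NOP58 and SNU13 fell, by 0.95 (adjusted p = 0.00109) and 0.81 (adjusted p = 0.000852) on the log2 scale, and 0 rose. FBL, the methyltransferase, was at 0.17 (adjusted p = 0.31) and NOP56 at −0.29 (adjusted p = 0.08). FBL was called higher both with library totals alone (0.62) and with the length trend removed (0.50). Of the 4 core proteins of box H/ACA particles, 3 fell and 0 rose. DKC1, the pseudouridine synthase and itself a snoRNA host, went from 178 ± 6.92 to 83.3 ± 8.77 CPM (SD, n = 3; log2 fold change −1.10, adjusted p = 0.00015), and NHP2 and NOP10 fell by 0.98 and 0.87, while GAR1 was at −0.22 (adjusted p = 0.589). Of 11 assembly factors tested, RUVBL1 and RUVBL2 fell, by 0.70 and 0.49, and 0 rose, a share of falls near that of all genes. With library totals alone 0 assembly factors were called lower and 2 higher, and their median turned from −0.305 to 0.15.

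Some protein-coding genes other than the RPL and RPS genes also carry snoRNAs. Of 17 tested, 8 fell and 0 rose, with a median log2 fold change of −0.37, but with library totals alone 2 were called lower and 4 higher and the median was 0.08. RACK1, a protein of the small ribosomal subunit surface, fell by 0.76 (adjusted p = 0.00134), NCL, which encodes nucleolin, by 0.64 (adjusted p = 0.00109), and HSPA8, a chaperone, by 0.55 (adjusted p = 0.0049). Of 79 cytosolic ribosomal protein genes, many of which also carry snoRNAs, 78 fell and 0 rose, with a median of −0.69. The exception, named after its value was seen, was RPS2, at −0.12 (adjusted p = 0.53). With the length trend removed, 62 of the 79 were called lower, and with library totals alone 57. Of 9 factors of nonsense-mediated decay, UPF1 and SMG6 rose, by 0.75 (adjusted p = 0.00285) and 0.89 (adjusted p = 0.00259), and UPF3B fell by 0.73 (adjusted p = 0.018), a call lost in 4 of the 6 fits that left out 1 library, and these counts are too small to set apart from the shares of all genes. The median of this group was 0.09, and −0.15 with the length trend removed.

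**Figure D4:**
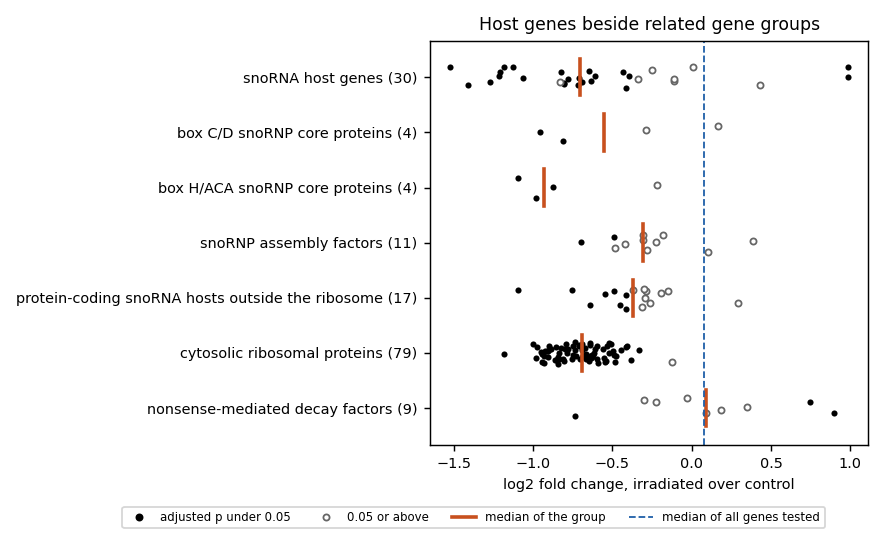
Log2 fold change, irradiated over control, of every tested gene in 7 groups, with the number tested in parentheses, filled points for an adjusted p under 0.05, orange bars for group medians and a dashed line for the median of all genes at 0.08. The medians of the noncoding hosts, −0.70, and of the cytosolic ribosomal protein genes, −0.69, lie close together.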

How the data were processed

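Total RNA of 6 HMC3 cultures was converted to nanopore cDNA-PCR libraries, and the authors aligned reads to GRCh38 with minimap2 and quantified transcripts with Salmon, in versions not given in the sources used here. Deposited values were raw transcript counts, whole numbers that were not normalised. Whether counting used strand or collapsed molecular identifiers was not stated, and 15 of 29 hosts found in GENCODE 29 overlap a gene on the other strand. Transcripts with 3 or more counts in 1 or more libraries were kept (95.6% to 96.4% of counts), counts were summed per gene, and genes with 10 or more counts in 3 or more libraries and 2 or more kept transcripts were tested. Control and irradiated groups came from the labels. edgeR 4.0.16 (R 4.3.3) with TMM factors and the quasi-likelihood test gave changes, and diffSpliceDGE gave isoform usage. All p-values were adjusted by Benjamini-Hochberg over all features. CPM are TMM-normalised. Alternatives were DESeq2 1.42.0, limma 3.58.1, RLE factors, library totals, other filters, a replicate block, removal of a loess trend on GENCODE 29 length (span 0.5) and omission of each library. By rule, values per library were given for the 12 hosts with the highest mean level and every differentially expressed host, and at most 4 genes were named per other list, with transcripts chosen from those holding 20% or more of a gene and those called. Values for other hosts, cell type markers and RPS2 were added after the data were seen. The members and lists were chosen with earlier results of these data known. Scripts were tested on simulated data. Part of the microglia marker list is not reported here.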

Additional observations from a re-analysis of the deposited data

How the results depend on the processing

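Library totals alone gave 13 host genes lower, where 356 of all 11118 genes were lower, with 1 host differentially expressed and lower and 2 higher. The same scaling gave 69 host transcripts lower and 85 higher, and a median log2 fold change of −0.246 for the hosts. SNHG6, SNHG32 and SNHG25 then turned to 0.014, 0.044 and 0.046, and SNHG25 turned to 0.092 with the length trend removed. That fit gave 3 hosts differentially expressed and lower, 2 higher, and a median of −0.363. DESeq2 called 1 transcript higher, and limma called 44 lower shares of any size. Dividing counts by length gave 1 isoform gained at a dIF of 0.1. With 10 counts in 3 libraries required of each transcript, 13 hosts had more effective isoforms without overlap between groups and 0 had fewer. The causes were not tested. Leaving out each replicate gave 0 to 2 hosts differentially expressed and higher (1 without control replicate 2 or irradiated replicate 1, and 2 without control replicate 3 or irradiated replicate 2), 6 to 35 transcripts higher (6 without control replicate 1, 7 without control replicate 2, 8 without irradiated replicate 1 and 35 without control replicate 3), 53 to 104 shares higher and 1 to 25 lower at any size (highest without control replicate 3 and lowest without irradiated replicate 3), 1 to 3 hosts with fewer effective isoforms, and a median of −0.802 to −0.632. The replicate block gave 2 hosts differentially expressed and higher and 22 lower shares of any size, and changed the call of no host but SNHG20 (adjusted p = 0.038). Correlations between the deviations of same-numbered cultures were −0.00085, 0.0915 and 0.0163. The best partner of controls 1, 2 and 3 was irradiated 2, 2 and 1. Whether the numbers pair the samples was not stated, and 3 cultures per group cannot decide it. SNHG20 was also called with RLE factors, with either looser filter and without irradiated replicate 2, and SNHG14 with library totals. Depth limits SNHG4 most among the hosts called, at 17 to 44 counts a library.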
